A study of Rattus norvegicus with 2 samples.

Results

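The neuroendocrine cell genes examined here were *Calca*, *Chga*, *Chgb*, *Scg2*, *Scg3*, *Uchl1*, *Syp* and *Grp*, a set of 8 textbook markers. All probe sets were taken whose platform annotation gives a single gene symbol and whose symbol is one of these 8. This found 10 probe sets of 31042 non-control probe sets, and all 8 genes of the 14217 genes measured were represented. *Calca* had 3 probe sets and each other gene had 1. Total RNA of rat lung was hybridised to 2 short-oligonucleotide expression arrays, 1 from each of 2 experimenters, here called experimenter 2 and experimenter 1 by the numbers in the sample titles. The sample titles give the tissue and, for each array, a tag and a number, from which the experimenter was read. The labels do not state strain, sex, age, treatment, the number of animals, or whether the lung or the RNA was shared by both. There was 1 array per experimenter, so no value below has a replicate error and no test was possible.

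Pulmonary neuroendocrine cells are rare epithelial cells of the airway wall that occur singly or in innervated clusters called neuroepithelial bodies. They sense oxygen, stretch and chemical stimuli and release stored peptides and amines from dense-core granules, which form around granin proteins. The same granule and vesicle proteins are made by neurons, so that nerve fibres in the lung share several of these markers, although the messenger RNA of a neuron lies mostly in its cell body outside the lung.

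Values are log2 RMA values. RMA (robust multi-array average) corrects background, equalises the distribution of the arrays and summarises the probes of a probe set into 1 value. It gives no detection call, and probe sets bind with different efficiency. The place of a value on its array is therefore given as a percentile, the percent of non-control probe sets at or below it, and does not rank genes by their amount of RNA. In whole lung RNA, fewer cells of a type and less RNA per cell cannot be told apart.

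The neuroendocrine markers lay in the lower part of both arrays. None of the 10 probe sets reached the array median, which was 6.28 for experimenter 2 and 6.32 for experimenter 1, and 6 of 10 lay below the lower quartile on each array (4.37 for experimenter 2 and 4.42 for experimenter 1). The median value of the 10 was 3.68 for experimenter 2 and 3.87 for experimenter 1, at median percentiles of 14.7 for experimenter 2 and 16.8 for experimenter 1. Against genes in place of all probe sets, with 1 probe set per gene, the median percentiles were 8.35 for experimenter 2 and 9.72 for experimenter 1. On that scale the members ran from *Scg2* at 1.51 for experimenter 2 and 1.85 for experimenter 1 to *Syp* at 29.7 for experimenter 2 and 29.5 for experimenter 1. *Uchl1* lay at 8.85 for experimenter 2 and 12.3 for experimenter 1, and *Grp* at 3.54 for experimenter 2 and 2.67 for experimenter 1. Percentiles below are again over all probe sets. The tissue label was checked against alveolar type 1 and type 2 genes. By their brightest probe sets, the lowest of them measured 11.01 for experimenter 2 and 11.18 for experimenter 1. *Sftpc*, the surfactant protein C gene of alveolar type 2 cells, measured 14.36 for experimenter 2 and 14.39 for experimenter 1. Genes of the airway epithelia, given below, covered a wider range and were not all bright.

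**Figure D1:**
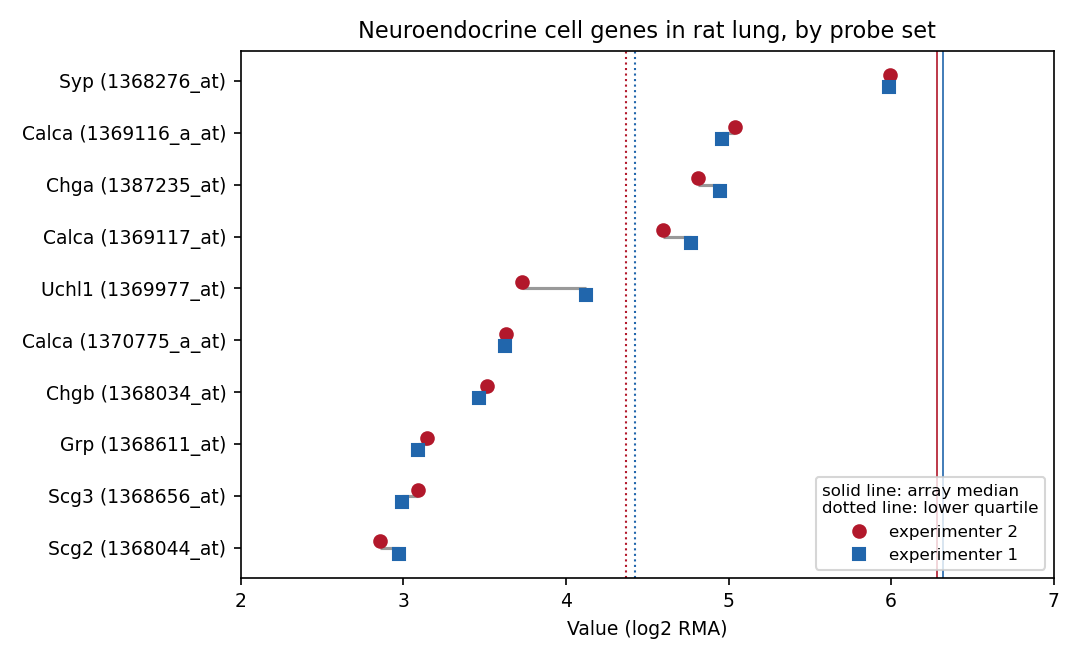
Values (log2 RMA, horizontal axis) of the 10 probe sets of the 8 neuroendocrine genes on the array of experimenter 2 (red circles) and of experimenter 1 (blue squares), 1 array each, with each array's median (solid line) and lower quartile (dotted line). All 10 probe sets lie left of both medians, and the order from Syp down to Scg2 is the same on both arrays.

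The peptide precursors come first by role. *Calca* encodes calcitonin and, by alternative splicing, calcitonin gene-related peptide (CGRP), the vasodilator peptide stored in neuroepithelial bodies and sensory fibres. Its brightest probe set, 1369116_a_at, measured 5.04 for experimenter 2 and 4.96 for experimenter 1. The probe set 1369117_at measured 4.60 for experimenter 2 and 4.77 for experimenter 1, and 1370775_a_at measured 3.63 for experimenter 2 and 3.62 for experimenter 1. The 3 probe sets thus spanned percentiles 14.0 to 34.0 for experimenter 2 and 12.8 to 32.4 for experimenter 1, and they did not differ in one direction between the arrays. Which of the splice forms each probe set detects is not stated in the annotation used. *Grp* encodes gastrin-releasing peptide, the mammalian relative of bombesin, a growth-promoting and bronchoconstrictor peptide. Its probe set measured 3.15 for experimenter 2 and 3.09 for experimenter 1, near the lower end of each array at percentiles 6.76 for experimenter 2 and 5.19 for experimenter 1.

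Granins are acidic proteins that aggregate calcium and cargo as dense-core granules form, and several are cut into smaller peptides. *Chga*, chromogranin A, measured 4.81 for experimenter 2 and 4.95 for experimenter 1 and was the only 1 of the 4 granin probe sets above the lower quartile of the arrays. *Chgb*, chromogranin B, measured 3.51 for experimenter 2 and 3.47 for experimenter 1. *Scg3*, secretogranin III, which anchors granin aggregates to the granule membrane, measured 3.09 for experimenter 2 and 2.99 for experimenter 1. *Scg2*, secretogranin II, the precursor of secretoneurin, had the lowest values of the set, 2.85 for experimenter 2 and 2.97 for experimenter 1, at percentiles 3.02 for experimenter 2 and 3.68 for experimenter 1. Of these 4, *Chgb* and *Scg3* were higher for experimenter 2 and *Chga* and *Scg2* were lower, each by under 0.2.

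The other markers are not secreted. *Syp*, synaptophysin, a membrane protein of small synaptic-like vesicles, had the highest values, 5.99 for both experimenters, at percentiles 46.5 for experimenter 2 and 45.8 for experimenter 1. *Uchl1* encodes a ubiquitin C-terminal hydrolase abundant in neurons and neuroendocrine cells, known to pathologists as PGP9.5. It measured 3.73 for experimenter 2 and 4.13 for experimenter 1, at percentiles 15.4 for experimenter 2 and 20.8 for experimenter 1, and was the member with the largest difference between the arrays.

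The 10 probe sets held the same order on both arrays. Of the 9 pairs of neighbours in that order, 4 were closer to each other on at least 1 array than the larger of their own differences between the arrays. These were the brightest *Calca* probe set and *Chga*, *Uchl1* and the dimmest *Calca* probe set, *Grp* and *Scg3*, and *Scg3* and *Scg2*. *Syp* stood apart from its neighbour by 0.95 for experimenter 2 and by 1.03 for experimenter 1.

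Sequences around the gene starts are given for some of the members. Of the 8 genes, 7 had an entry in the RefSeq promoter table of assembly GRCr8, which holds 250 bases before and 50 after each gene's start, and *Chga* had none there. The stretches shown are those of *Syp*, the member with the highest values, *Calca*, the brightest peptide precursor, and *Scg2*, the member with the lowest values. Each is read 5′ to 3′ on the strand of its gene. Capitals mark 3 motifs searched on both strands, which are TGACGTCA (the full cyclic AMP response element), its part TGACG, which every full element also contains, and CAGCTG (an E-box of the kind bound by basic helix-loop-helix factors).
Syp, chrX:17536400-17536699, minus strand: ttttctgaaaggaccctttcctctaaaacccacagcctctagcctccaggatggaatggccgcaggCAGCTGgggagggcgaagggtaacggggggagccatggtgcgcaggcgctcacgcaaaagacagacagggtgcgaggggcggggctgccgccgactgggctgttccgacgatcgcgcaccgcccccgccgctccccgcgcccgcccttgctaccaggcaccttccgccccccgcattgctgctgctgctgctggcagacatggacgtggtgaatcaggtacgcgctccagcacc
Calca, chr1:178317480-178317779, minus strand: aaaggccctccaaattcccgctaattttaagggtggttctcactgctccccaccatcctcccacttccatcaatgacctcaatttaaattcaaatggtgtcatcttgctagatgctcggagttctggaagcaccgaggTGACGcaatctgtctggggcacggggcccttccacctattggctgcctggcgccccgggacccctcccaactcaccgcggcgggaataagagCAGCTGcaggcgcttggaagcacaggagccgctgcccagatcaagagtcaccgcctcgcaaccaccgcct
Scg2, chr9:88256817-88257116, minus strand: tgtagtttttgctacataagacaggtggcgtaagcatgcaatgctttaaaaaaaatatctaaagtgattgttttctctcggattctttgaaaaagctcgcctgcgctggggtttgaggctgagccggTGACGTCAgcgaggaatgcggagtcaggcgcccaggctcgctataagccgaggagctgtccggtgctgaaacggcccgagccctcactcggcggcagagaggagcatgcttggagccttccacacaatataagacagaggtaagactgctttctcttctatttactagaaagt
The full element occurred in *Scg2* alone among the 7 promoters, against 1.83% of the 33469 promoters in the table. TGACG occurred in 4 of the 7 (*Calca*, *Grp*, *Scg2* and *Scg3*), against 21.2% of all, and CAGCTG in 2 of the 7 (*Calca* and *Syp*), against 15.1%. The G and C content was 67.0% in *Syp*, 58.0% in *Calca* and 50% in *Scg2*, against a median of 51.7% over all promoters. It was 59.0% in *Grp*, 58.7% in *Scg3* and in *Uchl1*, and 56.7% in *Chgb*, with a median of 58.7% over the 7. These matches describe letters only and were not related to binding or to the values.

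Between the arrays, the neuroendocrine genes were close to each other. Differences are given as experimenter 2 minus experimenter 1. They ran from -0.40 to 0.098 over the 10 probe sets, with a median of 0.0083, against a median of -0.052 and an SD of 0.28 over all 31042 probe sets. Of the 10, 6 were higher for experimenter 2 and 4 were lower, while 41.0% of all probe sets were higher and 58.7% were lower. Of the 10, 6 differed by under 0.1 and 9 by under 0.2, which held for 31.8% and 57.3% of all probe sets. The count under 0.1 changed with the scaling, as given with the other scalings below.

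No member probe set was 1.5-fold apart in either direction. The background for 1.5-fold was 2.05% of all probe sets higher and 2.30% lower, so that a count of 0 of 10 is near the background. None was 2-fold apart either, with 0.261% of all probe sets higher and 0.110% lower by that bound. The differences closest to 0 were those of *Syp* and of the dimmest *Calca* probe set, both 0.0083, and 97.1% of all probe sets were at least as far apart. For *Uchl1*, at -0.40 or 0.759-fold, 13.9% of all probe sets were at least as far apart.

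**Figure D2:**
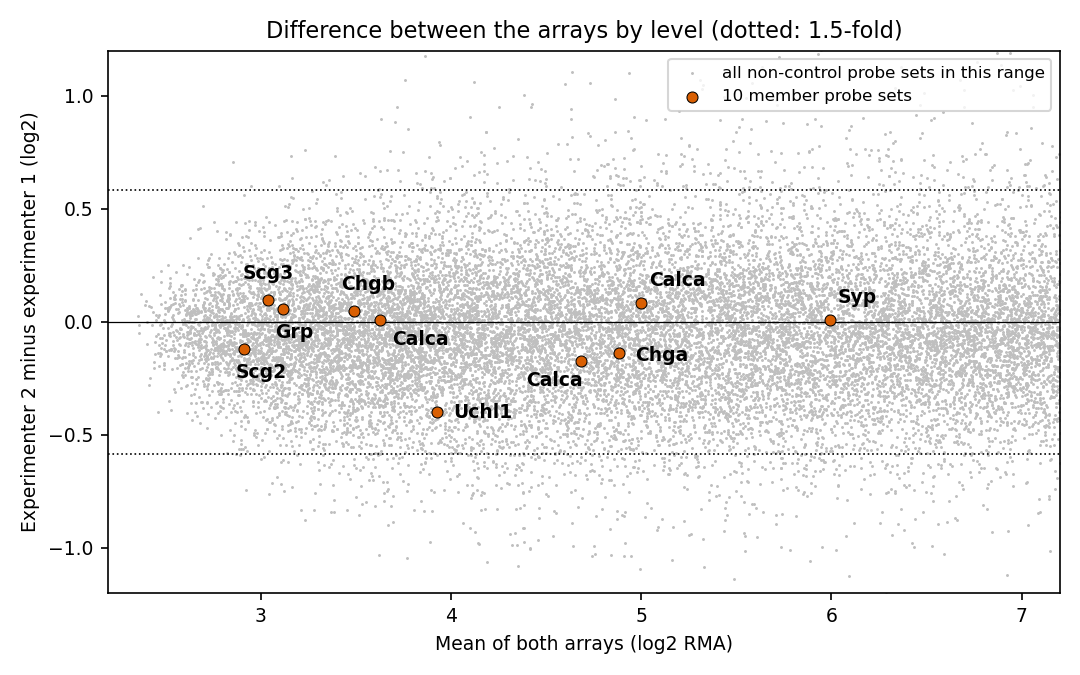
Difference between the arrays (experimenter 2 minus experimenter 1, log2) against the mean of both arrays (log2 RMA) for the 10 probe sets of the neuroendocrine genes (orange) and for all non-control probe sets in the plotted range (grey); the axes are limited to the levels around the members, and dotted lines mark 1.5-fold. All 10 lie between the dotted lines, and Uchl1 is the lowest at -0.40.

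Genes of other organs had list medians close to those of the neuroendocrine genes. A list of 18 genes of pancreas, pituitary, retina and testis with no known main role in lung, of which 17 were measured, had a median of 3.71 for experimenter 2 and 3.91 for experimenter 1. The 8 neuroendocrine genes, by their brightest probe sets, had medians of 3.62 for experimenter 2 and 3.80 for experimenter 1. Of the 8, 4 lay above the median of that list on each array. Below its lowest gene lay *Scg2* for experimenter 2, and *Scg2* and *Scg3* for experimenter 1, and 0 of the 8 lay above its highest gene, *Ctrb1*, a pancreatic chymotrypsinogen, at 6.55 for experimenter 2 and 6.41 for experimenter 1. *Ins1*, an insulin gene, measured 5.78 for experimenter 2 and 5.57 for experimenter 1. Because probe sets differ in brightness, these values do not show whether any of the neuroendocrine genes was expressed.

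**Figure D3:**
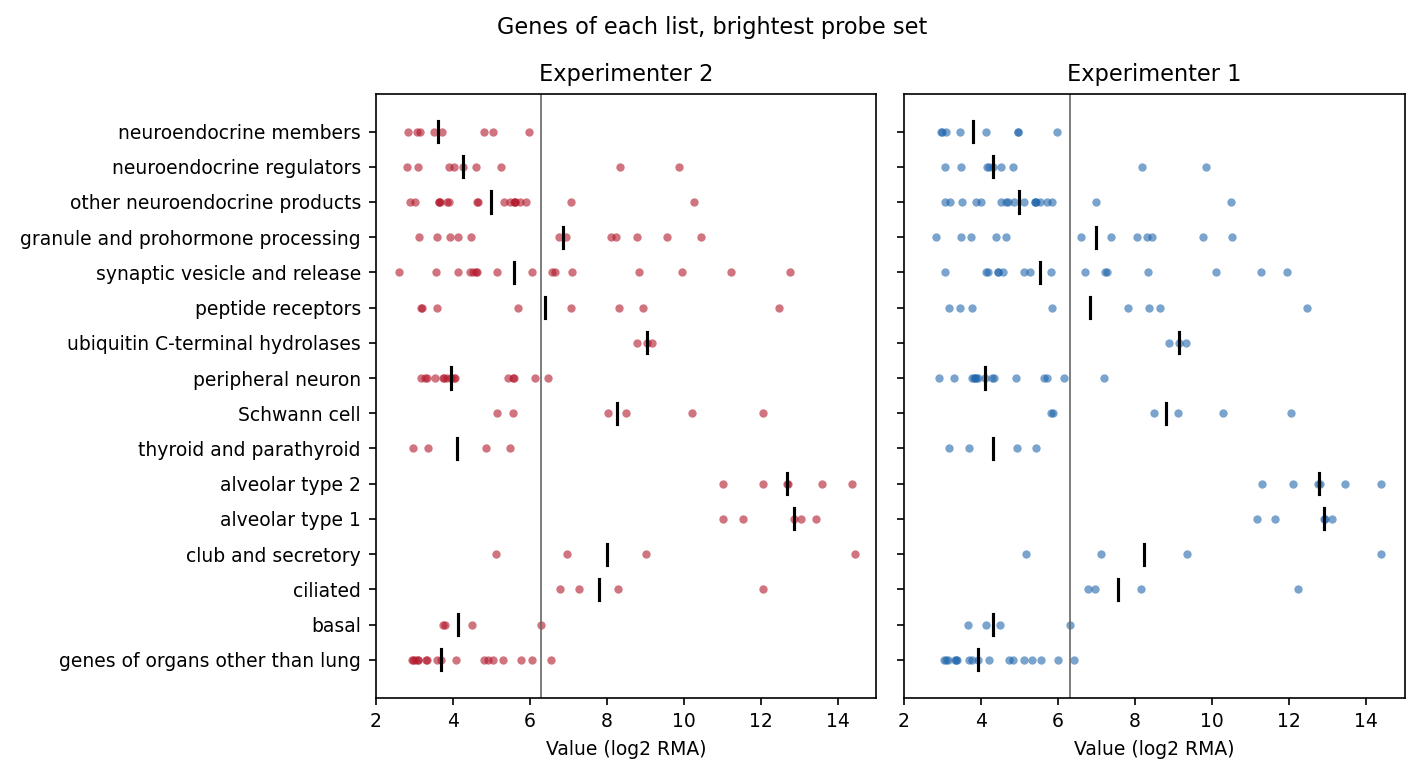
Values (log2 RMA) of each measured gene by its brightest probe set, grouped by list, for experimenter 2 (left) and experimenter 1 (right), with list medians as black bars and the array median as a grey line. All 8 neuroendocrine genes lie below the array median, and their list median is close to that of genes of organs other than lung (3.62 and 3.71 for experimenter 2), whereas alveolar type 1 and type 2 genes lie above 11.

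Regulators of the neuroendocrine fate were covered in part, since *Insm1*, a zinc finger transcription factor of endocrine cells, had no probe set with a single symbol in the annotation used. Of the 9 measured of 12 listed, 5 were higher and 4 lower for experimenter 2, against 41.1% of all 14217 genes higher by their brightest probe sets. *Neurod1*, a neuronal and endocrine transcription factor, measured 3.09 for experimenter 2 and 3.47 for experimenter 1. *Hes1*, a Notch target that represses the neuroendocrine fate, measured 9.87 for experimenter 2 and 9.85 for experimenter 1, and *Hes6*, a relative known to oppose *Hes1*, measured 8.34 for experimenter 2 and 8.17 for experimenter 1. *Prox1*, a homeobox factor, measured 5.26 for experimenter 2 and 4.83 for experimenter 1, but its other probe set went the other way with 4.16 for experimenter 2 and 4.31 for experimenter 1. *Rest*, the repressor of neuronal genes in other cells, measured 3.91 for experimenter 2 and 4.30 for experimenter 1, and its other probe set differed in the same direction with 3.34 for experimenter 2 and 3.69 for experimenter 1.

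Other products of these cells lay mostly in the lower part of the arrays. Of 18 measured of 21 listed, 2 were at or above the array median on each array. For experimenter 2, 8 were higher and 10 were lower, while 41.1% of all genes were higher, and the median difference was -0.077. Of the 18, 2 (*Dbh*, given further below, and *Piezo2*) were at least 1.5-fold lower and 0 were 1.5-fold higher. The shares of all probe sets past that bound were 2.30% and 2.05%. *Npy*, neuropeptide Y of sympathetic fibres and some other cells, measured 10.28 for experimenter 2 and 10.50 for experimenter 1. *Calcb*, which encodes the second form of CGRP and is close to *Calca* in sequence, measured 3.85 for experimenter 2 and 3.99 for experimenter 1. How far probes of *Calca* bind transcripts of *Calcb*, or the reverse, was not tested. *Calcb* and *Neurod1* were named outside the rule for named genes, after their values were seen. *Ncam1*, a neural adhesion molecule of neuroepithelial bodies, measured 5.89 for experimenter 2 and 5.72 for experimenter 1 by its brightest probe set, while its other 2 probe sets differed the other way, by -0.62 and -0.49. *Piezo2*, a mechanically gated channel of neuroendocrine and sensory cells, measured 3.91 for experimenter 2 and 4.53 for experimenter 1.

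Genes that process granule cargo included several in the upper part of the arrays. Of 12 measured of 14 listed, 7 were at or above the array median. For experimenter 2, 6 were higher and 6 lower, while 41.1% of all genes were higher, and the median difference was 0.015. *Pam*, which amidates peptide ends such as those of CGRP and gastrin-releasing peptide, measured 10.44 for experimenter 2 and 10.52 for experimenter 1. Its other 2 probe sets lay far lower, 1 at 4.16 for experimenter 2 and 4.76 for experimenter 1, past 1.5-fold, and 1 at 2.72 for experimenter 2 and 2.82 for experimenter 1. *Cpe*, the carboxypeptidase that trims peptides after cleavage, measured 8.79 for experimenter 2 and 8.43 for experimenter 1. *Rab27a*, a GTPase of secretory granules, measured 9.56 for experimenter 2 and 9.78 for experimenter 1, and 1 of its other 2 probe sets went the other way by 0.062. *Pcsk1n*, the inhibitor of a prohormone convertase, measured 6.95 for experimenter 2 and 7.38 for experimenter 1. In contrast, *Pcsk2*, a prohormone convertase, measured 3.59 for experimenter 2 and 3.49 for experimenter 1, and *Vgf*, a further granin-like precursor, 3.12 for experimenter 2 and 2.84 for experimenter 1. *Pcsk2* and *Vgf* were named after their values were seen.

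Vesicle genes related to *Syp* covered a wide range. Of 16 measured of 17 listed, 6 were higher and 10 lower for experimenter 2, while 41.1% of all genes were higher. The median difference was -0.053. *Sypl1*, a synaptophysin-like protein found in many tissues, measured 12.75 for experimenter 2 and 11.95 for experimenter 1, and was the only gene of these 16 at least 1.5-fold higher. *Syngr2*, a synaptogyrin of non-neuronal cells, measured 9.96 for experimenter 2 and 10.09 for experimenter 1. *Sv2b*, a synaptic vesicle glycoprotein, measured 11.21 for experimenter 2 and 11.26 for experimenter 1 by its brightest probe set, although its other 2 measured between 3.52 and 3.58 for experimenter 2 and between 3.88 and 3.95 for experimenter 1. *Syngr3*, a neuronal synaptogyrin, measured 4.61 for experimenter 2 and 5.28 for experimenter 1 and was at least 1.5-fold lower. By the 1.5-fold bound, 2.05% of all probe sets were higher and 2.30% lower. The relatives of *Uchl1* were bright, with *Bap1* at 9.17 for experimenter 2 and 9.33 for experimenter 1, *Uchl3* at 9.06 for experimenter 2 and 9.15 for experimenter 1, and *Uchl5* at 8.78 for experimenter 2 and 8.88 for experimenter 1.

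All 8 genes for receptors of the peptides were measured. For CGRP, *Calcrl*, the endothelial receptor that binds the peptide, measured 7.07 for experimenter 2 and 7.82 for experimenter 1, and its other probe set 6.49 for experimenter 2 and 6.87 for experimenter 1. *Ramp1*, whose protein joins it to make the CGRP receptor, measured 8.32 for experimenter 2 and 8.36 for experimenter 1. *Ramp2*, whose protein makes it an adrenomedullin receptor, measured 12.48 for experimenter 2 and 12.47 for experimenter 1, and *Ramp3*, which acts likewise, measured 5.70 for experimenter 2 and 5.85 for experimenter 1. *Crcp*, the CGRP receptor component protein, which is also a subunit of RNA polymerase III, measured 8.95 for experimenter 2 and 8.64 for experimenter 1. *Grpr*, the receptor for gastrin-releasing peptide, measured 3.21 for experimenter 2 and 3.46 for experimenter 1, *Nmbr*, the neuromedin B receptor, 3.60 for experimenter 2 and 3.77 for experimenter 1, and *Calcr*, the calcitonin receptor, 3.19 for experimenter 2 and 3.16 for experimenter 1. Of the 8 receptor genes, 3 were higher and 5 lower for experimenter 2, while 41.1% of all genes were higher. *Calcrl* alone was 1.5-fold apart, by its brightest probe set, and was lower. By that bound, 2.30% of all probe sets were lower and 2.05% higher.

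Because *Uchl1* is also a gene of neurons, nerve markers are given beside it. Of 15 measured neuron genes of 16 listed, 11 were lower and 4 higher, with a median difference of -0.063. Over all probe sets 58.7% were lower and the median was -0.052, so the median of the neuron genes was near the background. Of the 15, 2 (*Elavl3* and *Nefm*) were at least 1.5-fold lower and 0 were 1.5-fold higher. Over all probe sets, 2.30% were lower and 2.05% higher by that bound. Their values ran from 3.19 to 6.47 for experimenter 2 and from 2.91 to 7.18 for experimenter 1, with 10 of 15 below the lower quartile on each array. *Elavl3*, a neuronal RNA-binding protein, measured 6.47 for experimenter 2 and 7.18 for experimenter 1. Its other probe set measured 6.62 for experimenter 2 and 6.86 for experimenter 1, a difference of -0.24 and short of 1.5-fold. *Nefm*, a neurofilament chain, measured 3.19 for experimenter 2 and 3.85 for experimenter 1. *Scn10a*, a sodium channel of sensory neurons, measured 6.13 for experimenter 2 and 6.16 for experimenter 1, and *Tac1*, the substance P precursor, which sensory fibres release together with CGRP, measured 5.61 for experimenter 2 and 5.72 for experimenter 1. Of 6 measured Schwann cell genes of 8 listed, 5 were lower and 1 was higher, while 41.1% of all genes were higher. The median difference of the Schwann cell genes was -0.38. Their values ran from 5.16 to 12.07 for experimenter 2 and from 5.82 to 12.04 for experimenter 1. *Sox10*, their defining transcription factor, measured 5.16 for experimenter 2 and 5.82 for experimenter 1, and *Mbp*, myelin basic protein, 8.51 for experimenter 2 and 9.11 for experimenter 1, while *Pmp22* and *Prx*, the brightest 2, differed by 0.025 and -0.068. Of the other probe sets, 2 of *Mbp* lay far lower and differed by -0.33 and 0.070, and that of *Pmp22* differed by -0.12. By their brightest probe sets, 2 of the 6 Schwann cell genes (*Mbp* and *Sox10*) were at least 1.5-fold lower and 0 were 1.5-fold higher. The shares of all probe sets past that bound were 2.30% and 2.05%. From which cells of the lung the signal of *Pmp22* and *Prx* came was not tested. The part of nerve in the *Uchl1* difference was not tested either. Thyroid tissue, whose C cells make calcitonin, was also checked. *Tg*, thyroglobulin, measured 4.86 for experimenter 2 and 4.93 for experimenter 1, and *Slc5a5*, the iodide transporter, 3.35 for experimenter 2 and 3.68 for experimenter 1, with 0 of 4 measured thyroid and parathyroid genes at or above the median of either array.

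Among the airway epithelia where neuroendocrine cells sit, 3 of 4 club and secretory genes and 4 of 4 ciliated cell genes were at or above the median on each array. Of the basal cell genes, 1 of 4 was for experimenter 2 and 0 of 4 were for experimenter 1. Club cell *Scgb1a1*, a secretoglobin, measured 14.44 for experimenter 2 and 14.37 for experimenter 1, and ciliated cell *Foxj1*, the factor that drives motile cilia, 8.30 for experimenter 2 and 8.15 for experimenter 1. Basal cell *Krt5*, a keratin, measured 3.80 for experimenter 2 and 3.67 for experimenter 1. *Krt15*, the brightest basal gene, measured 6.29 for experimenter 2 and 6.30 for experimenter 1. Of the club and secretory genes, 1 was higher for experimenter 2 and 3 were lower. Ciliated and basal genes had 2 higher and 2 lower each, while 41.1% of all genes were higher. The lower ones included *Cyp2f4* of the club list (-0.32), *Tppp3* of the ciliated list (-0.17) and *Tp63* of the basal list (-0.39). Medians of the differences were -0.11 for 4 club and secretory genes, -0.0070 for 4 ciliated genes and -0.0038 for 4 basal genes, against 0.027 for the 8 neuroendocrine genes. Under each other scaling tried, the medians of the ciliated and basal genes were above 0, and when probe sets were averaged per gene that of the neuroendocrine genes was -0.0095.

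**Figure D4:**
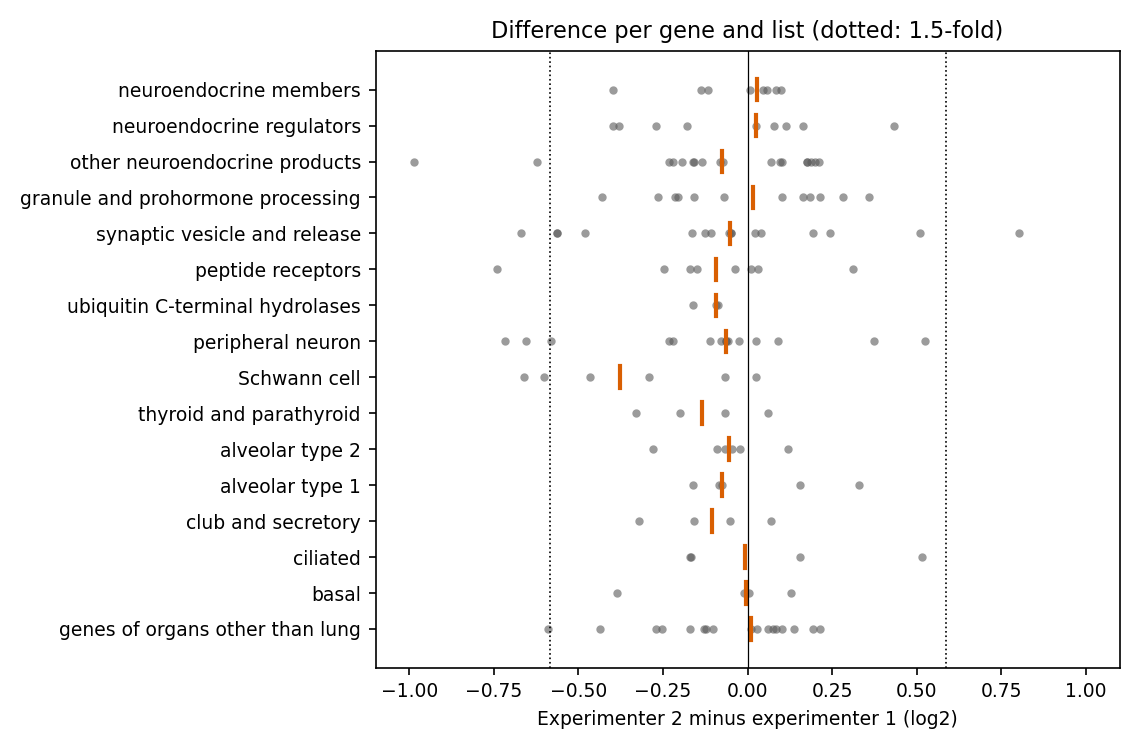
Difference between the arrays (experimenter 2 minus experimenter 1, log2) of each measured gene by its brightest probe set, grouped by list, with list medians as orange bars and dotted lines at 1.5-fold. The neuroendocrine genes lie between -0.40 and 0.098 with a median of 0.027, and the Schwann cell genes have the lowest median, -0.38.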

How the data were processed

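The authors deposited 1 table of log2 values made with RMA, per the submitters' processing notes; its version, its annotation and which arrays were normalized with these 2 are not stated, and log base 2 was taken from the range of the values. RMA's common distribution hides differences in total RNA, and the number of arrays, 1 per experimenter, limits the precision. Of 31099 probe sets, 57 controls were kept apart; 20826 of the rest had 1 symbol, 436 had several and 9780 had none. Symbols were updated through Entrez identifiers (20758 matched) to the GRCr8 gene table. Genes in the 16 lists were represented by the probe set with the highest mean. Of each list other than the members, up to 3 genes with the highest mean and 2 with the largest differences were eligible to be named, and every peptide receptor. Members and lists were chosen with earlier results of these data known. Alternatives were median centring, loess (fraction 0.3), quantile normalization, the mean over probe sets, a filter on level and other backgrounds for percentiles. Python 3.11.15, numpy 2.4.6, pandas 2.3.3, statsmodels 0.14.6 and matplotlib 3.10.9 were used, and the functions were tested on simulated data.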

Additional observations from a re-analysis of the deposited data

How the results depend on the processing

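No paired analysis was possible because there was a single array on each side, which also meant that neither could be omitted. With no replicates, a difference or list median was said to move when it changed by more than 0.28, the SD of the difference over all probe sets, and a probe set's percentile when it changed by more than its own gap between the arrays. For list medians this bound, taken from single probe sets, is wide, so changes of sign are given as well. Percentiles among genes in place of all probe sets moved for most members, as given with the levels. Under the 3 other scalings (median centring, loess and quantile normalization) none of the 10 member differences turned direction, 6 of 10 stayed higher for experimenter 2, and 0 were 1.5-fold apart; the median difference was 0.043, 0.063 and 0.065, while the share of all probe sets higher for experimenter 2 was 47.1%, 50.1% and 48.5%. Each of these scalings raised all 10 member differences, so only the 4 lower ones could have turned. The count under 0.1 depended on the scaling. With loess, *Chgb* (0.105), *Grp* (0.114), *Scg3* (0.154) and the brightest *Calca* probe set (0.134) passed that bound. *Scg2* (-0.064) and *Chga* (-0.085) came within it. The share of all probe sets under 0.1 was not computed under these scalings. Under these scalings the medians of 2 of the 16 lists turned, to 0.027, 0.048 and 0.032 for ciliated and 0.030, 0.050 and 0.041 for basal genes. When probe sets were averaged per gene, the medians of the members (-0.0095), the regulators (-0.054), the granule genes (-0.040) and the genes of other organs (-0.10) turned. With dim genes left out (those under the median level), the peripheral neuron median was -0.72, since it then rested on 1 gene. That gene was *Elavl3* by its brightest probe set, and its other probe set differed by -0.24. The median of the granule genes turned to -0.070, and the members gave no value, since none reached that level. Low signal without detection calls limits every member.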

Other observations

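Amine synthesis and storage, a further trait of neuroendocrine cells, were covered in part and gave differences in both directions. *Tph1*, an enzyme of serotonin synthesis, was listed but had no probe set with a single symbol. *Ddc*, the decarboxylase that makes serotonin and dopamine, measured 7.08 for experimenter 2 and 6.99 for experimenter 1. *Slc18a2*, a vesicular amine transporter, measured 5.50 for experimenter 2 and 5.43 for experimenter 1 and was also higher for experimenter 2 by its other 2 probe sets, by 0.33 and 0.18. *Slc18a1*, the endocrine form of the transporter, measured 3.03 for experimenter 2 and 3.19 for experimenter 1. *Dbh*, which makes noradrenaline, measured 3.65 for experimenter 2 and 4.64 for experimenter 1, a difference of -0.99 by its single probe set, and *Th*, the first enzyme of catecholamine synthesis, measured 4.06 for experimenter 2 and 4.29 for experimenter 1. *Slc18a1*, *Slc18a2* and *Th* were named after their values were seen. There was no replicate check of these differences.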
